A study of Mus musculus with 6 samples.

Results

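The 40 genes described here encode the machinery of mitosis: the kinase and cyclins that start it, the spindle and its motors, the kinetochores, the spindle checkpoint, and the enzymes that separate chromosomes and divide the cell. They were listed by gene symbol, with earlier results of these data known but no measured value in the rule, and all 40 matched 1 row each among 23154 Ensembl mouse genes. Poly(A) RNA was sequenced from 2 stable lines of RAW264.7, a mouse macrophage-like cell line that divides in culture. One line carried the doxycycline-inducible construct pINDUCER20b-HA-NUR77, which encodes HA-tagged NUR77, a nuclear receptor. The control line carried pINDUCER20b-GFP. Both lines received 1 µg/mL doxycycline for 18 hours, beginning 24 hours after plating, and each contributed 3 dishes, 1 library per dish. Each group is therefore 1 stable line, line and transgene cannot be told apart, and the p-values below measure the spread between dishes of a line. The series title names the macrophage inflammatory response and mitochondrial metabolism as its subject; cell division is not named there.

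In a dividing cell, transcripts of these genes build up in G2 and are highest as the cell enters mitosis. CDK1 bound to cyclin A or B drives entry, and Polo and Aurora kinases build the spindle. The spindle checkpoint delays the separation of chromosomes until every kinetochore is attached. The anaphase-promoting complex, a ubiquitin ligase, then marks securin and cyclin B for destruction. Many of these genes share promoter elements: CCAAT boxes bound by NF-Y, and the cell cycle homology region (CHR), which is bound by the MuvB core of the DREAM complex in resting cells and of the B-MYB and FOXM1 complexes in G2. In RNA from whole cultures, more cells in G2 or mitosis and more RNA per cell cannot be told apart.

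The unit of level throughout is the normalized read, 1 of 10000000 reads assigned to genes in a library. The 6 libraries held 11199468 to 15929487 reads on genes before scaling, and each member had at least 326 reads in every library, so all 40 passed the filter of a mean of 10 normalized reads. The macrophage markers Csf1r, Cd68, Adgre1, Ptprc, Lyz2, Cd14, Itgam, Spi1, Fcgr1 and Tyrobp were all detected, with a summed level of 65280 to 66933 in the GFP line and 30072 to 31768 in the NUR77 line. They did not move together: 6 were lower, with Lyz2 (mean 26664 in GFP and 2566 in NUR77) and Cd68 (14010 and 5136) carrying most of the fall in the sum, 2 were higher, Itgam (4224 and 9598) and Fcgr1, and Ptprc and Spi1 did not pass. Their part in the results was not tested. Of 5 T cell, 4 B cell and 4 epithelial markers, 3, 2 and 2 had no read in any library; the B cell markers summed to 2.09 to 3.27 in GFP and 12.5 to 29.96 in NUR77, and their part in the results was not tested. The 13 skeletal muscle markers summed to 387 to 440 in GFP and to 327, 114 and 123 in NUR77, sums in which Tnni2 was the largest term (mean 364 in GFP and 75.5 in NUR77, called lower). Without Tnni2, left out after its values were seen, NUR77 replicate 1 stood apart at 230.4 against 47.7 to 55.7 in the other libraries. It also stood apart in the sum of 6 fibroblast markers, at 97.3 against 19.0 to 32.7, where Col3a1 at 62.5 was the largest term. Dcn (8.93, 8.36 and 7.96 in NUR77, 2.09, 1.26 and 0.65 in GFP) and Col1a1 were instead higher in every NUR77 library than in every GFP library. Both were under the filter and were not tested. Without NUR77 replicate 1, 30 members were higher and 2 lower. Nr4a1, which encodes NUR77, was at 170, 148 and 161 in GFP and at 288, 314 and 297 in NUR77 (log2 fold change 0.90, SE 0.08, limma adjusted p = 5.5e-08); endogenous and transgene reads are not separated.

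Promoter sequence was available for 33 of the 40 genes, as RefSeq windows on GRCm38.p6 running from 250 bases before to 50 bases after the transcription start. The first window listed for each gene symbol was used, and any other start of a gene was not searched. A CHR match, searched as TTTGAA or TTCGAA on both strands, was present in 26 of the 33 windows (78.8%) and in 19.4% of 27025 windows of all genes. The corresponding shares for CCAAT, searched on both strands, were 25 of 33 (75.8%) and 37.9%, and 23 members (69.7%) against 7.7% of all genes had both. Among genes that were tested for expression, 14.2% of 8790 windows had a CHR match and 39.6% a CCAAT match. TTCGAA reads the same on both strands and was counted once, and a CHR and a CCAAT match can share an end base. A match is a description of letters, not a site shown to be bound.

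The upstream stretches of 6 members are printed. These genes carried both kinds of match before the start and were taken in order of absolute log2 fold change. A gene was passed over where the stretch outside annotated exons no longer held both kinds. All 6 printed genes also passed the test below. The printed stretches run 5′ to 3′ on the strand of the gene, with the CHR and CCAAT matches of either strand in capitals, and leave out bases of annotated exons. The stretches lie at chr11:99024190-99024431 on the minus strand for Top2a, chr2:118598008-118598210 on the plus strand for Bub1b, chr19:37376322-37376381 on the plus strand for Kif11, chr9:70421555-70421736 on the minus strand for Ccnb2, chr7:135716380-135716582 on the minus strand for Mki67 and chr10:69352939-69353135 on the minus strand for Cdk1.
Top2a: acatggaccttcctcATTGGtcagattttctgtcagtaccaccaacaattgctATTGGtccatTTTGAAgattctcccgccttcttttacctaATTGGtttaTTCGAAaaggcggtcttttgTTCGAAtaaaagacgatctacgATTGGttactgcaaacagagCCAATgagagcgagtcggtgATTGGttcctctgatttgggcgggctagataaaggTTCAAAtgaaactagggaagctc
Bub1b: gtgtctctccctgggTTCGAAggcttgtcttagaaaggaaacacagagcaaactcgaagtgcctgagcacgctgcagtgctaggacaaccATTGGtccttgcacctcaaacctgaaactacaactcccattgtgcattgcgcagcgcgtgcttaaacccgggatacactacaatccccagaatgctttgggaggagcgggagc
Kif11: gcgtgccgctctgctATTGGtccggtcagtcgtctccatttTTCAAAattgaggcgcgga
Ccnb2: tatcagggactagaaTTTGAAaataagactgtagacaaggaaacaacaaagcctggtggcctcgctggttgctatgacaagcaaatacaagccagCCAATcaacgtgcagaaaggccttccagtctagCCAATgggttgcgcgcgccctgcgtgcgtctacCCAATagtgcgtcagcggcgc
Mki67: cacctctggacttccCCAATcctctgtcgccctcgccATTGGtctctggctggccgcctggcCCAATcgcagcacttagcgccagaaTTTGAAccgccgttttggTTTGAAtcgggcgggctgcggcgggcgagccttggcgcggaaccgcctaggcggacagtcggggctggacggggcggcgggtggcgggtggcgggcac
Cdk1: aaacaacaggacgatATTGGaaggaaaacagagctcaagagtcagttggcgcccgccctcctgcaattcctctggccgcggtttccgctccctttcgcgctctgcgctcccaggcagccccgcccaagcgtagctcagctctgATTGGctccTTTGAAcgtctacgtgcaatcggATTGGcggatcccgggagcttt
In Top2a, 4 CHR and 6 CCAAT matches lay before the start, whereas Kif11 had 1 of each within 60 bases of it. The CHR matches of Cdk1 began 71 and 15 bases before the start, the latter beyond the stretch shown, and those of Mki67 began 116 and 98 bases before it.

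**Figure D1:**
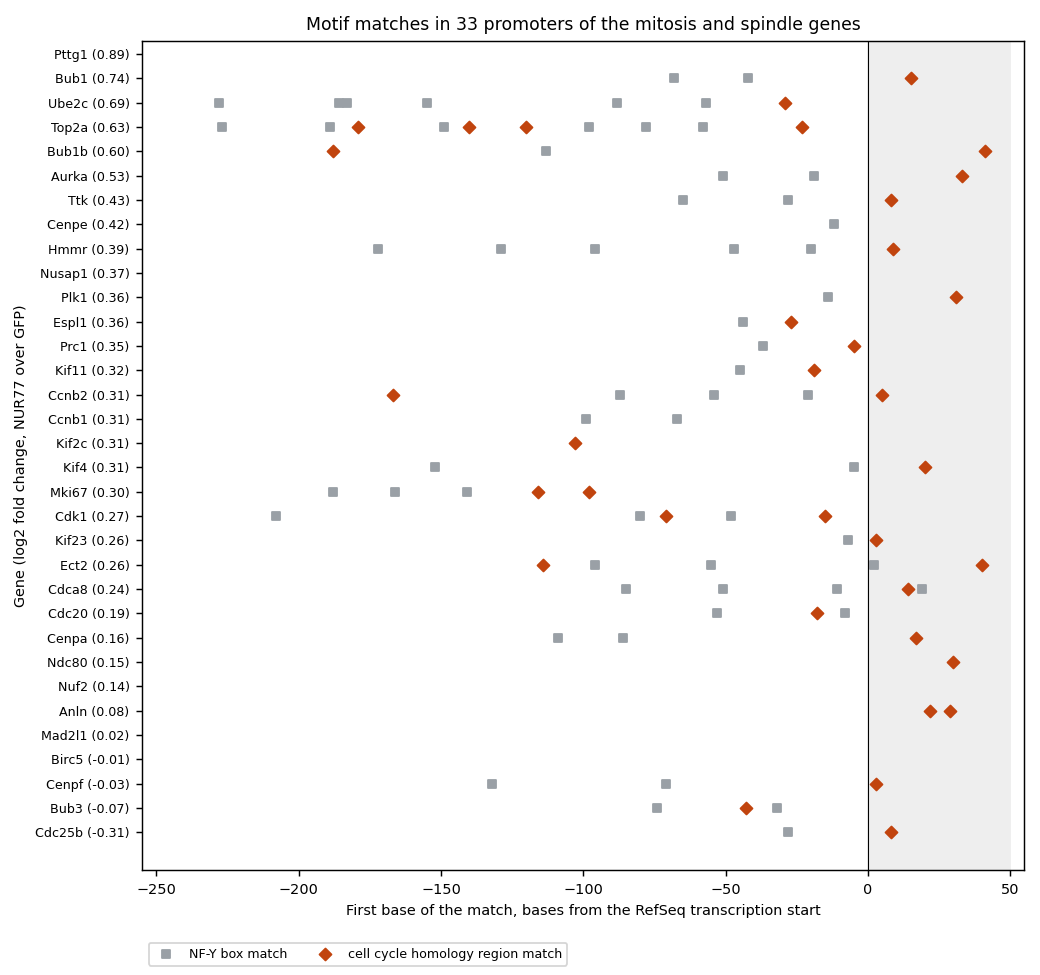
Position of the first base of each CHR match (diamonds) and each CCAAT or NF-Y box match (squares) in 33 promoter windows, in bases from the RefSeq transcription start; shading marks the 50 bases after the start. Genes are ordered by log2 fold change, and Pttg1 at the top (0.89) has no match while Cdc25b at the bottom (-0.31) has both kinds.

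Members with and without a CHR match had the same median difference between the lines. The 26 members with one had a median log2 fold change of 0.31, and the 7 whose window had none also had 0.31. Pttg1, the gene with the largest rise, had neither match in its window, and Cdc25b, which fell, had both. Of the members that did not pass the test, Bub3, Cenpf, Ndc80 and Anln had matches, Mad2l1 and Birc5 had neither kind, and Foxm1 had no window. A relation between matches and the difference was not tested.

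Mitosis transcripts were moderately more abundant in the NUR77 line. Of the 40 members, 31 rose, 2 fell and 7 did not pass the threshold (limma, adjusted p under 0.05 over all 11201 tested genes), which is 77.5% higher and 5% lower. Over all tested genes 66.7% were called, 38.4% higher and 28.3% lower, so most genes differed between these lines and the background of rises alone is 38.4%. The median log2 fold change was 0.31 over the members, or 1.24-fold, and 0.06 over all tested genes. No member changed by 2-fold or more, and the fold changes ran from 0.734 (Incenp) to 1.86 (Pttg1). In size, without regard to direction, the members were ordinary: the median absolute log2 fold change was 0.31 for them and 0.31 for all tested genes. All 3 NUR77 libraries lay above all 3 GFP libraries in 30 members (75%), against 40.3% of all tested genes.

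Summed over the 40 genes, the GFP libraries held 51603, 56035 and 55055 normalized reads and the NUR77 libraries 67421, 67259 and 67632. The GFP sums vary more than the NUR77 sums, and the groups do not overlap. Within the GFP line, replicate 1 was the lowest library for 29 of the 40 members and replicate 2 the highest for 24. NUR77 replicate 3 was the lowest of its line for 24 members, although its sum was the highest. Many members thus had the same library lowest or highest, but the share over all tested genes was not computed. Whether this variation is shared by these members or by the whole library was not tested. Without GFP replicate 1 the median log2 fold change of the members was 0.27.

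**Figure D2:**
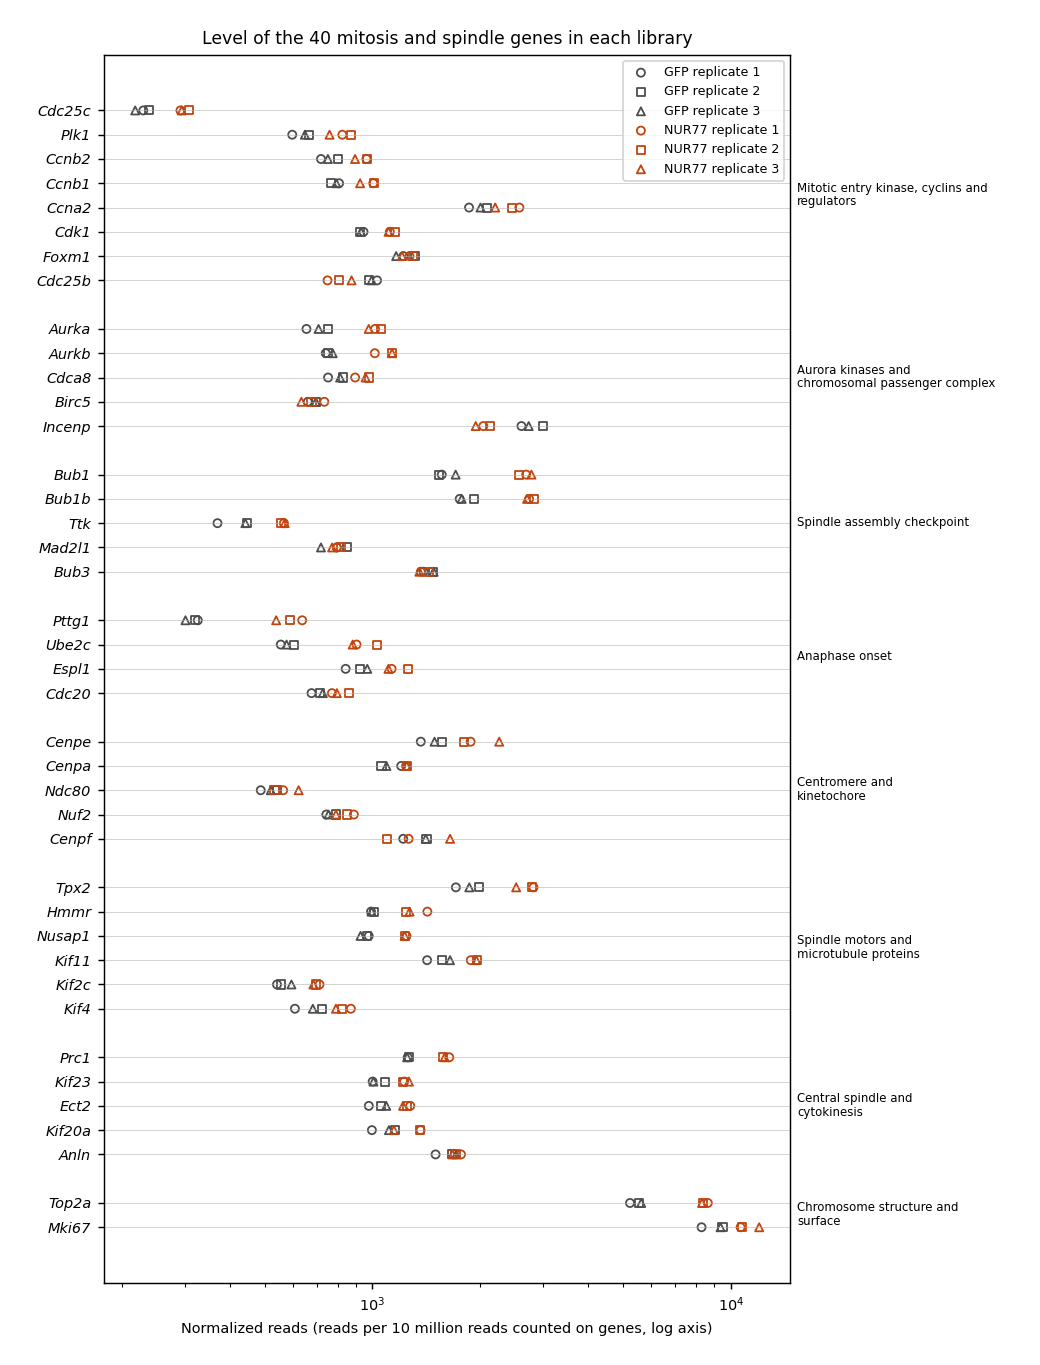
Normalized reads (log axis) of each of the 40 genes in each of the 6 libraries, grouped by role; gray symbols are GFP and orange symbols NUR77 libraries, with the replicate given by shape. In 30 genes every orange symbol lies to the right of every gray one; in Incenp and Cdc25b the order is the opposite.

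Of the 8 genes for mitotic entry, 6 rose, 1 fell and 1 did not pass. Cdk1, the kinase that drives entry, was at 944, 924 and 929 normalized reads in GFP and at 1118, 1154 and 1109 in NUR77. Its groups were tight and clearly apart, and it rose by 0.27 on the log2 scale (SE 0.05, adjusted p = 1.7e-04). Ccnb1, which encodes cyclin B1, was at 807, 767 and 793 in GFP and at 1005, 1013 and 924 in NUR77. It rose by a similar amount (0.31, SE 0.06, adjusted p = 1.2e-04), as did Ccnb2, the gene of the other main mitotic cyclin (0.31, from 757 ± 41.6 to 941 ± 40.8), and Ccna2, the gene of cyclin A2 (0.28, from 1982 ± 113 to 2408 ± 189). Here and below, values with ± are means and SDs of 3 libraries.

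Plk1, the Polo kinase that helps activate CDK1 and mature the spindle poles, was at 597, 667 and 648 in GFP and at 824, 871 and 759 in NUR77 (log2 fold change 0.36, SE 0.06, adjusted p = 1.1e-04). The phosphatase genes that remove the inhibitory phosphates from CDK1 went in opposite directions. Cdc25c was the lowest member in abundance, at 229, 238 and 218 in GFP and 291, 308 and 294 in NUR77, and it rose (0.38, SE 0.07, adjusted p = 2.7e-04). Cdc25b was at 1030, 981 and 995 in GFP and 749, 808 and 874 in NUR77, with all NUR77 libraries lower (-0.31, SE 0.06, adjusted p = 2.9e-04). Foxm1, the transcription factor that activates many of the genes listed here in G2, did not pass: it was at 1220, 1318 and 1165 in GFP and 1269, 1296 and 1209 in NUR77. The groups overlap fully and the 95% interval of its log2 fold change ran from -0.09 to 0.15 (adjusted p = 0.67).

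The chromosomal passenger complex joins the kinase Aurora B to INCENP, survivin and borealin, and corrects faulty attachments. Its members diverged. Aurkb, the kinase gene, was at 741, 753 and 775 normalized reads in GFP and at 1015, 1132 and 1135 in NUR77 (log2 fold change 0.53, SE 0.06, adjusted p = 4.5e-07). Cdca8, which encodes borealin, rose less, from 797 ± 39.98 to 943 ± 43.1 (0.24, adjusted p = 0.0016). Incenp, the scaffold gene (chromosome 19, 9872296 to 9899551, minus strand), was at 2605, 2988 and 2730 in GFP and 2039, 2123 and 1942 in NUR77. It was the member that fell most, with every NUR77 library below every GFP library (-0.45, SE 0.06, adjusted p = 3.0e-06). Birc5, which encodes survivin, was at 660, 697 and 695 in GFP and 734, 676 and 633 in NUR77, with overlapping groups (-0.01, 95% interval -0.14 to 0.12, adjusted p = 0.91). Aurka, the related kinase of the spindle poles, was at 654, 751 and 707 in GFP and at 1017, 1059 and 976 in NUR77, a rise equal to that of Aurkb (0.53, SE 0.06, adjusted p = 8.2e-07).

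Among the 5 spindle checkpoint genes, Bub1, Bub1b and Ttk rose and the other 2 did not pass. Bub1, a checkpoint kinase of the kinetochore (chromosome 2, 127801122 to 127831865, minus strand), was at 1561, 1532 and 1707 in GFP and at 2686, 2566 and 2778 in NUR77. This 1.67-fold rise was the second largest among the members (log2 fold change 0.74, SE 0.05, adjusted p = 3.0e-09). Bub1b, which encodes BUBR1, a part of the complex that inhibits CDC20, was at 1752, 1925 and 1775 in GFP and at 2737, 2819 and 2702 in NUR77 (0.60, SE 0.05, adjusted p = 2.2e-08). Ttk, the kinase that recruits the checkpoint proteins, rose from 420 ± 43.6 to 563 ± 7.60 (0.43, adjusted p = 7.0e-05).

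Bub3, whose product binds BUB1 and BUBR1, was at 1388, 1474 and 1481 in GFP and 1364, 1435 and 1352 in NUR77. The groups overlap (log2 fold change -0.07, 95% interval -0.18 to 0.05, adjusted p = 0.28), but Bub3 passed as lower under TMM scaling (-0.14, adjusted p = 0.03) and under upper-quartile scaling (-0.13, adjusted p = 0.04). Mad2l1, which encodes the checkpoint effector MAD2, was at 795, 851 and 718 in GFP and 796, 818 and 772 in NUR77. Its NUR77 values fall inside the GFP range, and the 95% interval ran from -0.12 to 0.15 (adjusted p = 0.84).

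All 4 genes of anaphase onset rose, and they include the largest rise of the 40. Pttg1, which encodes securin, the inhibitor of separase (chromosome 11, 43420250 to 43426251, minus strand), was at 325, 320 and 301 in GFP and at 637, 588 and 539 in NUR77. The lowest NUR77 library was well above the highest GFP library, a 1.86-fold rise (log2 fold change 0.89, SE 0.07, adjusted p = 9.3e-09). Ube2c, the ubiquitin-conjugating enzyme that works with the anaphase-promoting complex (chromosome 2, 164769898 to 164778822, plus strand), was at 555, 604 and 576 in GFP and at 903, 1027 and 881 in NUR77 (0.69, SE 0.07, adjusted p = 6.9e-08). Espl1, the separase gene, rose from 911 ± 63.7 to 1166 ± 81.1 (0.36, adjusted p = 1.2e-04). Cdc20, the activator of the anaphase-promoting complex and target of the checkpoint, was higher by the smallest amount in this group, 706 ± 26.5 against 808 ± 45.6 (0.19, adjusted p = 0.0084); its call was lost with TMM (0.12, adjusted p = 0.084) or upper-quartile (0.13, adjusted p = 0.056) scaling and without NUR77 replicate 2 (0.15, where adjusted p was 0.055).

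Centromere and kinetochore genes showed the smallest differences of the role groups, with a median log2 fold change of 0.15, 3 of 5 higher and 2 that did not pass. Cenpe, a kinesin motor of the kinetochore, was at 1364, 1564 and 1490 in GFP and at 1880, 1799 and 2259 in NUR77 (0.42, SE 0.08, adjusted p = 3.9e-04). Its groups did not overlap, with NUR77 replicate 3 above the other libraries. The gap between the lines was smaller than the range within the NUR77 line. Cenpa, the histone variant that marks the centromere, was at 1203, 1060 and 1094 in GFP and at 1241, 1246 and 1246 in NUR77 (0.16, SE 0.06, adjusted p = 0.022). Nuf2 was at 762 ± 23.9 and 843 ± 48.9 (0.14, adjusted p = 0.039). Both of these last calls were lost when scaled by TMM (adjusted p = 0.21 for Cenpa and 0.31 for Nuf2), by the upper quartile (0.16 and 0.23) or by the median of ratios (0.14 and 0.21), without the trend (0.064 and 0.08), for Nuf2 without the filter (0.058), and when single libraries were left out: GFP replicate 2 (0.1), GFP replicate 3 (0.092) or NUR77 replicate 2 (0.054) for Cenpa, and GFP replicate 1 (0.12), GFP replicate 3 (0.11), NUR77 replicate 1 (0.13) or NUR77 replicate 2 (0.096) for Nuf2.

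Ndc80, whose product pairs with NUF2 to hold microtubules, was at 488, 542 and 520 in GFP and 563, 533 and 622 in NUR77. The groups overlap by 1 library, and the difference did not pass (log2 fold change 0.15, 95% interval 0.00 to 0.29 unadjusted, adjusted p = 0.07); it passed with either GFP replicate 2 (0.18, adjusted p = 0.049) or NUR77 replicate 2 (0.20, adjusted p = 0.033) left out. Cenpf, a large protein of the outer kinetochore, was at 1219, 1416 and 1409 in GFP and 1262, 1099 and 1647 in NUR77. Its standard error was the largest among the members (0.15 on the log2 scale), with the NUR77 libraries on both sides of the GFP libraries, and the 95% interval of the difference was -0.39 to 0.33 (adjusted p = 0.87). Without NUR77 replicate 3 Cenpf passed as lower (-0.19, adjusted p = 0.035).

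All 6 genes of spindle motors and microtubule proteins rose, between 0.31 and 0.55 on the log2 scale. Tpx2, which encodes the activator of Aurora A on spindle microtubules, was at 1709, 1979 and 1863 in GFP and at 2815, 2783 and 2519 in NUR77 (0.55, SE 0.06, adjusted p = 5.7e-07). Hmmr, a spindle pole and hyaluronan-binding protein, was at 991, 1013 and 994 in GFP and 1423, 1243 and 1270 in NUR77 (0.39, SE 0.06, adjusted p = 1.6e-05). In both genes the lines were apart by more than the range within either. Nusap1, a microtubule-bundling protein, rose by 0.37. The kinesins Kif11, which pushes the spindle poles apart, Kif2c, which depolymerizes microtubules at the centromere, and Kif4, a chromosome-bound motor, rose by 0.32, 0.31 and 0.31 (adjusted p = 9.5e-05, 2.1e-04 and 6.7e-04).

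In the central spindle and cytokinesis group 4 of 5 genes rose. Prc1, which bundles the antiparallel microtubules of the midzone, was at 1254, 1267 and 1250 in GFP and at 1638, 1574 and 1590 in NUR77 (log2 fold change 0.35, SE 0.05, adjusted p = 8.8e-06). Kif23, the motor of the centralspindlin complex, was at 1001, 1082 and 1007 in GFP and 1226, 1214 and 1264 in NUR77 (0.26, SE 0.05, adjusted p = 3.7e-04). Values of both genes were apart in all libraries. Ect2, the exchange factor that activates RhoA for the contractile ring, rose by the same amount (0.26, adjusted p = 5.7e-04). Kif20a rose from 1088 ± 82.8 to 1290 ± 123 (0.24, adjusted p = 0.0074) with 1 NUR77 library inside the GFP range, and its call was lost under TMM scaling (0.17, adjusted p = 0.054) and without the mean-variance trend (adjusted p = 0.056). Anln, which encodes the ring scaffold anillin, was at 1500, 1672 and 1713 in GFP and 1767, 1705 and 1672 in NUR77; the groups overlap and the 95% interval was -0.04 to 0.20 (0.08, adjusted p = 0.25).

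The most abundant members by far were Mki67 and Top2a. Top2a, the topoisomerase that untangles sister chromatids (chromosome 11, 98992943 to 99024189, minus strand), was at 5235, 5556 and 5626 in GFP and at 8632, 8376 and 8319 in NUR77 (log2 fold change 0.63, SE 0.05, adjusted p = 3.9e-09). Mki67, the proliferation marker Ki-67 that coats mitotic chromosomes, was at 8292, 9488 and 9369 in GFP and 10659, 10757 and 12011 in NUR77 (0.30, SE 0.06, adjusted p = 3.0e-04). Both genes were higher in every NUR77 library. For Mki67 the gap between the lines was no larger than the range within either line. Per kilobase of annotated exon, GFP levels of the 40 genes ran from 46.4 normalized reads (Cdc25c) to 900 (Mki67), with a median of 197; Incenp (641) and Top2a (607) came next after Mki67.

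**Figure D3:**
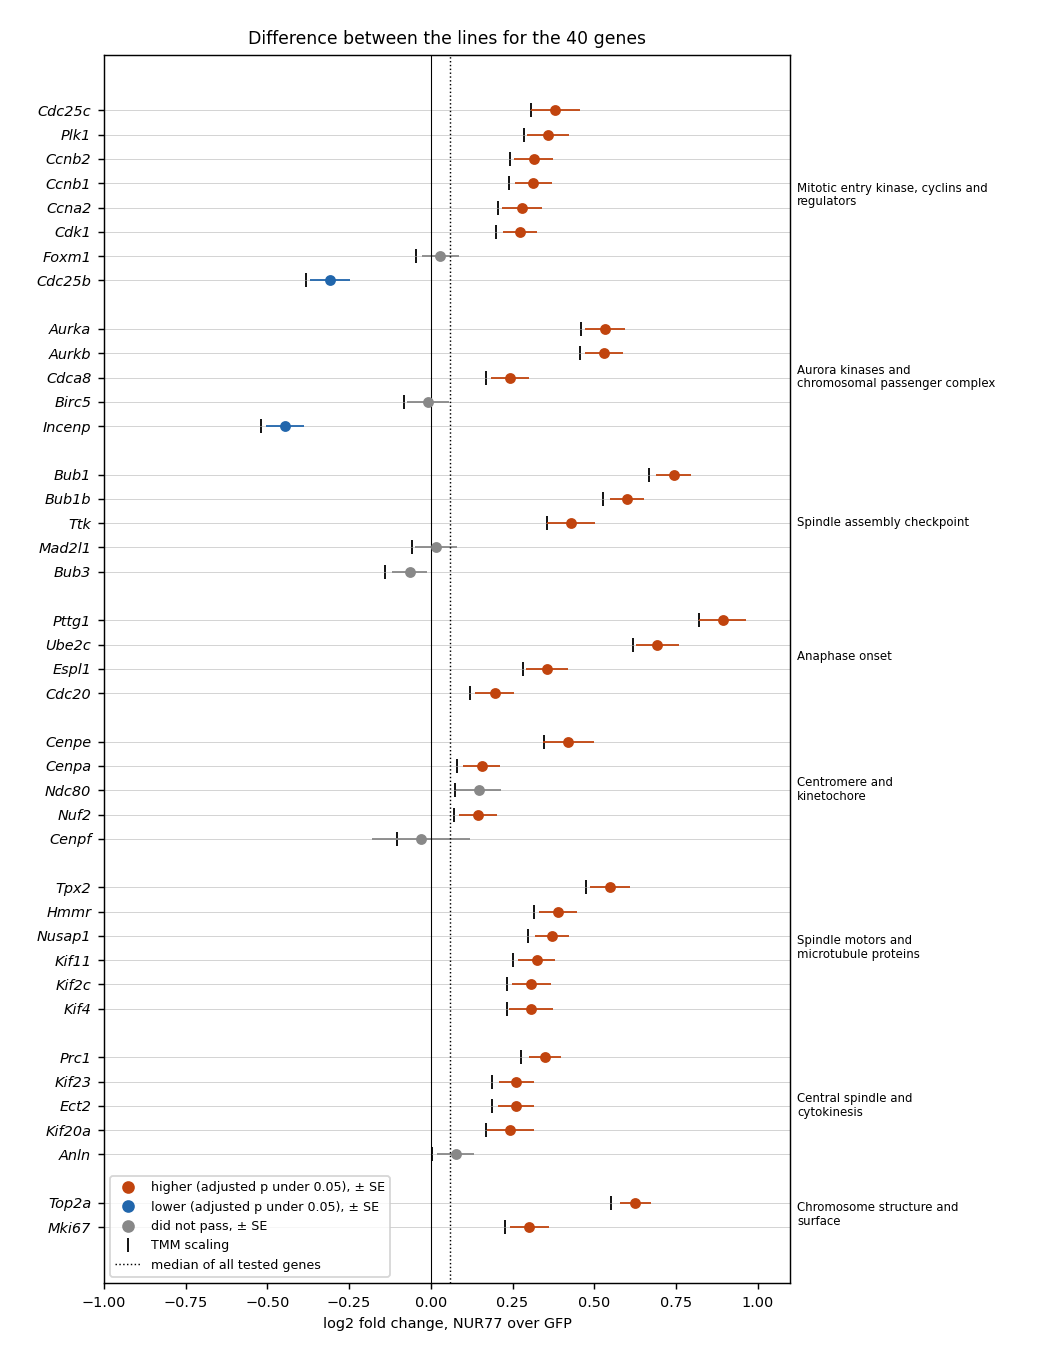
Log2 fold change (NUR77 over GFP) of each gene with its standard error, n = 3 libraries per line, colored by the test result; vertical ticks give the value under TMM scaling and the dotted line the median of all tested genes (0.06). The 4 anaphase onset and 6 spindle motor genes all lie to the right of zero, and every tick is shifted to the left by about the same amount.

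The deposited values are scaled to equal totals, which matters for differences as small as these. TMM scaling lowered the log2 fold changes by 0.07 (median over all tested genes), so that 27 members were higher and 3 lower, with a median of 0.23 against -0.01 for all tested genes. Over all genes the split turned from 4305 higher and 3170 lower to 3612 higher and 3835 lower. Most members kept their direction: 33 of the 40 had a positive log2 fold change under the deposited scaling and in each of 16 alternatives, and 29 (27 of them higher, with Incenp and Cdc25b lower) passed under all of them.

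Ratios of partner genes were computed within each library per kilobase of exon. They do not depend on the scaling between libraries. The 7 pairs were chosen after the values were seen, and with 3 against 3 libraries a two-sided exact permutation test cannot give less than 0.1 (0.175 adjusted over the 7), so none can pass and an overlap does not show equal ratios. Aurkb over Incenp was 0.418, 0.370 and 0.417 in GFP and 0.732, 0.783 and 0.858 in NUR77, without overlap (exact p = 0.1). Bub1 over Bub3 was 1.78 ± 0.0947 and 3.12 ± 0.220, Pttg1 over Espl1 was 1.52 ± 0.166 and 2.21 ± 0.222, and Cdc25c over Cdc25b was 0.173 ± 0.00971 and 0.279 ± 0.0216, each also without overlap (exact p = 0.1).

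Other pairs overlapped between the lines. Aurka over its activator gene Tpx2 was 0.707, 0.701 and 0.701 in GFP and 0.668, 0.703 and 0.716 in NUR77 (exact permutation p = 0.9). Ccnb1 over Cdk1 was 0.990 ± 0.0167 and 1.02 ± 0.0397 (exact permutation p = 0.3). Ndc80 over Nuf2 was 0.662 ± 0.0186 and 0.667 ± 0.0882 (exact permutation p = 1).

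Further lists of mitosis genes, 141 genes in all, were read from the same fit. All 141 were tested, and 84 were higher and 15 lower (59.6% and 10.6%), with a median log2 fold change of 0.20; under TMM scaling 64 were higher and 20 lower. Condensin and cohesin genes, which compact chromosomes and hold sisters together, had the largest share of rises, 17 of 20, with 2 lower (median 0.29). Ncapg, a condensin subunit, rose from 1118, 1239 and 1281 to 1792, 1649 and 1698 (0.50, adjusted p = 1.1e-06), and Sgo2a, a protector of centromeric cohesin, by 0.48. The genes that fell here were the alternative cohesin subunits Stag1 (-0.71, adjusted p = 6.2e-09) and Stag2 (-0.27, adjusted p = 0.0015).

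Of 34 other centromere and kinetochore genes 20 rose and 4 fell (median 0.22). Trip13, an ATPase that recycles MAD2, rose most (0.63), followed by Cenpk (0.56). Spdl1, which encodes spindly, a dynein adaptor at the kinetochore, was at 814, 957 and 814 in GFP and at 404, 375 and 399 in NUR77, a fall larger than any change among the 40 members (-1.13, SE 0.07, adjusted p = 2.9e-10). Mad1l1, the partner of MAD2 at kinetochores, was lower as well (-0.47, adjusted p = 4.5e-05).

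Of 41 other spindle, centrosome and cytokinesis genes 26 rose and 2 fell (median 0.24). The largest rises were in the microtubule-associated genes Ckap2l (0.87, adjusted p = 2.6e-10) and Ckap2 (0.78, adjusted p = 9.4e-09). The falls were small, Cntrob at -0.25 (adjusted p = 0.0052) and Cep135 at -0.20 (adjusted p = 0.047). The call of Cep135 was lost under 7 alternatives, among them without GFP replicate 1 (adjusted p = 0.068), GFP replicate 2 (0.16), GFP replicate 3 (0.071) or NUR77 replicate 2 (0.24).

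The anaphase-promoting complex itself was mixed, with 8 of 17 genes higher, 3 lower and a median of 0.06, close to that of all tested genes; under TMM scaling 5 were higher. Ube2s, its chain-extending enzyme, rose by 0.36 and the subunit gene Anapc4 by 0.31. The subunit genes Anapc16 (-0.40, adjusted p = 8.1e-04) and Cdc26 (-0.26, adjusted p = 0.021) fell. The call of Cdc26 was lost without GFP replicate 1 (adjusted p = 0.075), GFP replicate 3 (0.12) or NUR77 replicate 3 (0.052); without each of these libraries 1 gene of the list was lower.

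Controllers of mitotic entry and of G2/M transcription had 13 of 29 genes higher (44.8%, near the 38.4% of all tested genes) and 4 lower (median 0.15; 7 lower under TMM scaling). Mybl2, which encodes B-MYB, the partner of the MuvB core in G2, was at 562, 638 and 609 in GFP and at 1087, 1203 and 1072 in NUR77, a rise as large as that of Pttg1 (0.89, SE 0.06, adjusted p = 2.0e-09). Bora, the cofactor of Aurora A in activating PLK1, rose by 0.80. Gas2l3, a cytoskeletal linker of late mitosis, fell from 2005 ± 83.6 to 955 ± 0.605 (-1.07, adjusted p = 1.0e-11). Nfyc, a subunit gene of NF-Y, was lower by less (-0.58, adjusted p = 5.3e-05). The NF-Y subunit genes did not move together: Nfyb was higher (0.43, limma adjusted p = 2.3e-05) and Nfya did not pass (-0.03, limma adjusted p = 0.71).

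**Figure D4:**
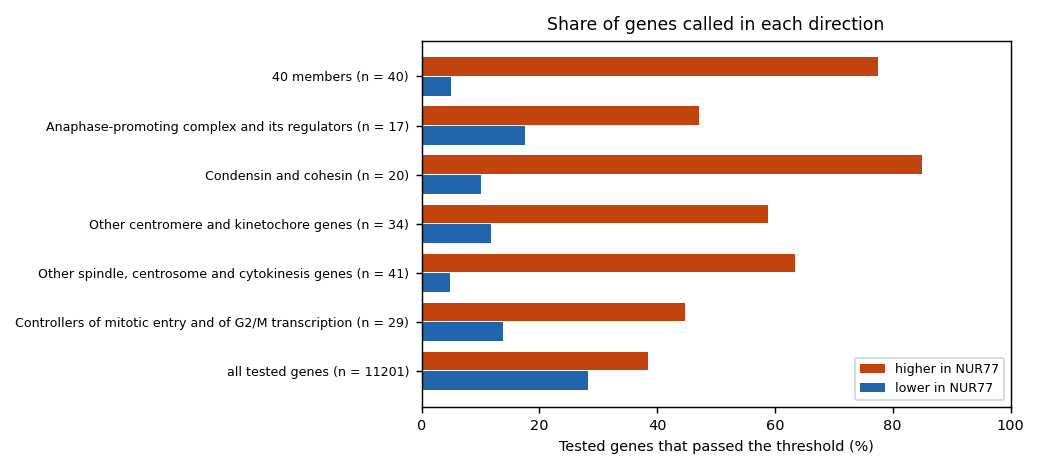
Percentage of tested genes called higher (orange) or lower (blue) in the NUR77 line, for the 40 members, the 5 other mitosis lists and all 11201 tested genes; n is the number tested. The members (77.5% higher) and condensin and cohesin genes (85%) stand farthest from all tested genes (38.4%), while the controllers of mitotic entry (44.8%) and the anaphase-promoting complex (47.1%) are nearest to them.

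Several of the largest rises lay on chromosome 2, so the members were set beside their chromosomal neighbours. The 7 members on chromosome 2 include Bub1, Ube2c, Bub1b, Tpx2 and Aurka; 6 of the 7 rose and 1 fell, with a median log2 fold change of 0.55. All 907 tested genes of chromosome 2 had a median of 0.08, close to that of all tested genes. This comparison was chosen after the values were seen. The 33 members on other chromosomes had a median of 0.28, with 25 higher and 1 lower. For each member the 20 flanking tested genes, 10 on each side, gave neighbour medians between -0.27 and 0.48. Of the 40 members, 34 lay above their own neighbours' median, and the median difference over all 40 was 0.21. The share of all tested genes above their neighbours was not computed, and 35 of the 40 members had a positive log2 fold change to begin with.

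For most members, among them all that were negative, the median of the neighbours had the same sign as the gene. This does not say that the neighbours passed the test, and how often signs match over all tested genes was not computed. The neighbours of Top2a had a median of 0.48 against 0.63 for the gene, and those of Kif11 had 0.39 against 0.32. Cdc25b, at -0.31, had neighbours with a median of -0.27, of which 12 were negative and 8 positive. Incenp, at -0.45, had neighbours with a median of -0.18, 13 negative and 7 positive. The part of such regions in the values of these genes was not tested. The signs differed for Plk1, Aurkb, Mad2l1, Cenpa, Prc1, Mki67 and Kif4. Of these, Kif4 on the X chromosome was at 0.31 among neighbours with a median of -0.27.

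**Figure D5:**
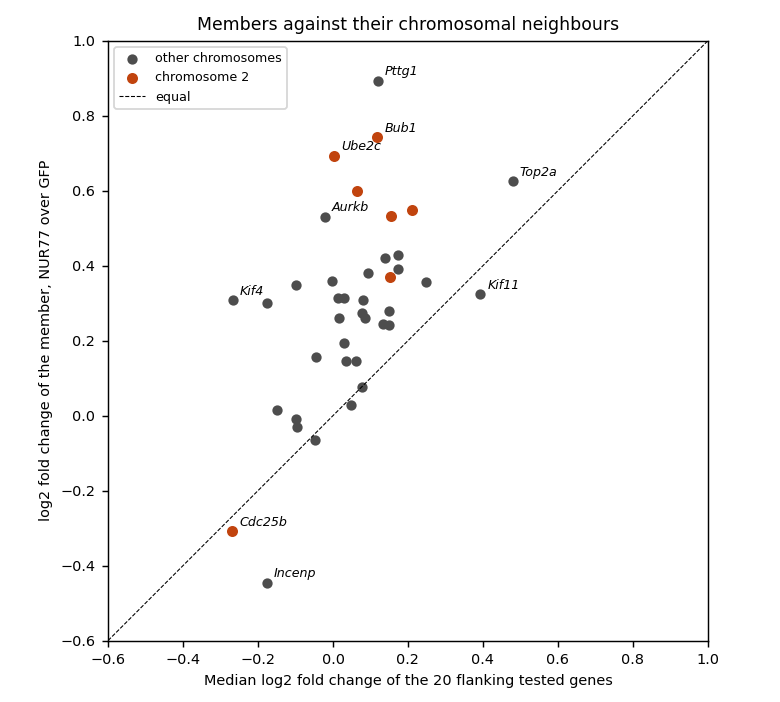
Log2 fold change of each member (vertical) against the median of its 20 flanking tested genes (horizontal), with chromosome 2 in orange and the dashed line marking equal values. Of the 40 members 34 lie above the line; Kif11 (0.32 against 0.39) and Cdc25b (-0.31 against -0.27) are among the 6 below it.

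Some values rest on how reads were assigned. Exons of Cdc20, Ccna2, Kif20a, Kif4, Nusap1, Prc1 and Cdca8 overlap those of protein-coding genes on the opposite strand (Elovl1, Exosc9, Cdc23, Pdzd11, Oip5, Rccd1 and 9930104L06Rik), each with 814 to 7847 reads over the 6 libraries. The libraries were strand-specific, but no source used here gives the strand setting of the counting, so reads of these pairs may be mixed. Exons of Foxm1 overlap those of Tex52 (46 reads over the 6 libraries) and Gm44596, which had no row, on the same strand. There strand cannot separate the reads. Ccnb1, Ccnb2 and Kif4 also have annotated processed pseudogenes, with which reads could be shared.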

How the data were processed

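Stranded poly(A) RNA-seq libraries of 6 RAW264.7 dishes, 3 per stable line, were grouped by the construct named in each title. The authors deposited log2 values per gene and library; tools and build, per the submitters' processing notes, were mm10, HTSeq, DESeq2 and TopHat2 2.1. What each tool did, how strand was set and which annotation was counted: not given in the sources used here. Deposited log2 values were taken as log2(normalized reads + 1): with the log undone, libraries summed to 10000000 and 100% of values were whole multiples of 1 read (tolerance 0.1 read), which gave the depths. Genes were named with GENCODE vM21 (GRCm38), which matched 22872 of 23154 identifiers.

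The 11201 genes whose mean reached 10 normalized reads were tested on the deposited log2 scale with limma 3.58.1 (R 4.3.3), trend and robust moderation, all 6 libraries and no covariates, and Benjamini-Hochberg adjustment over all tested genes at 0.05. The code was tested on simulated data. Fold changes are on the log2(value + 1) scale. The 40 members, the role groups and the other lists were chosen with earlier results of these data known. The rule for named genes gives per-library values for the 2 largest changes of each role group, for members that did not pass, and for Cdk1, Ccnb1, Mki67 and Foxm1. It also names the 2 largest called changes per direction in the other lists. Incenp and Cdc25b, Nfyb and Nfya, the partner ratios and the chromosome comparison were added after values were seen. Promoters with both matches upstream were printed in order of absolute fold change, each clipped to bases outside annotated exons, and a gene was skipped where the clipped stretch no longer held both kinds of match. Replicates of a line were not duplicates (chi-square per degree of freedom 2.51 or more). Alternatives were pseudocounts of 0.5 and 5, no filter or a mean of 50, TMM, upper-quartile and median-of-ratios scaling, no trend, limma-voom on recovered reads, a replicate block, and each library left out. Depth allows little counting error for these genes (326 reads or more).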

Additional observations from a re-analysis of the deposited data

How the results depend on the processing

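The number of members called higher was 31, and 27 to 31 over 16 alternatives; the number lower was 2, and 2 or 3. The median log2 fold change of the members was 0.31 and moved beyond the spread between libraries under TMM (0.23), upper-quartile (0.24) and median-of-ratios scaling (0.25) and without GFP replicate 1 (0.27); with each library left out it ran from 0.27 to 0.33. Without the members on chromosome 2, a choice made after seeing the data, 25 were higher and 1 lower, with a median of 0.28. Of 640 comparisons of single members with an alternative, 598 kept direction and call, 21 lost the call (in Cdc20, Kif20a, Cenpa and Nuf2) and 5 gained it. Signs turned in 16, all in members that did not pass. Under TMM, upper-quartile and median-of-ratios scaling Mad2l1 was at -0.058, -0.047 and -0.041, and Foxm1 at -0.045, -0.034 and -0.028. With single libraries left out the log2 fold change ran from -0.049 to 0.073 for Mad2l1, from -0.012 to 0.077 for Foxm1, from -0.064 to 0.042 for Birc5 and from -0.19 to 0.10 for Cenpf. The cause was not tested. The related lists had 64 to 87 genes higher and 12 to 20 lower.

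No source used here states a day or batch shared by same-numbered replicates of the lines. The correlations of their deviations were 0.002, 0.114 and 0.045, against -0.109 to 0.073 for pairs with different numbers. With 3 libraries per line these values cannot show whether a batch was shared. With the replicate number as a block, 31 members were higher and 2 lower, with a median of 0.31, 87 related genes were higher and 15 lower, and 4365 and 3220 of all tested genes.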
